A study of Mus musculus with 10 samples.

Results

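The DEAD and DEAH box RNA helicase genes were taken as the mouse protein-coding genes whose symbol is Ddx or Dhx followed by a digit, without Ddx4 and Ddx25. This rule found 51 genes among the 21774 protein-coding genes in RefSeq's annotation of GRCm38.p6, the mouse assembly known as mm10. They were looked up in lists of positions with ARID2 enrichment that were deposited as start sites of genes, although not all of them are annotated starts. ARID2 is the DNA-binding subunit that marks the PBAF form of the SWI/SNF chromatin remodeler. Occupancy had been measured by CUT&RUN, in which an antibody brings a nuclease to its target so that the DNA around it is cut free and sequenced. The cells were spermatogenic cells of wild-type CD1 mice, enriched for spermatocytes in prophase-I and metaphase-I. Every animal had been given WIN 18,446, an inhibitor of retinoic acid synthesis, at 100 µg per g of body weight from P1 to P10, and then 10 µl of retinoic acid at 10 µg per µl on P11, so that germ cells differentiated in step. Testes were collected either 17 days after the retinoic acid (P28) or 17.5 days after it (P28.5). Each age had 2 ARID2 libraries, 2 libraries for BRG1, the ATPase of the remodeler, and 1 library without primary antibody.

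For each age the authors deposited 1 list of transcription start sites (TSSs) in the cluster with ARID2 enrichment, called Cl-1. The list came from the averaged ARID2 libraries. Each row pairs a genomic position with a gene symbol and carries neither a strand nor an enrichment value. A gene is therefore listed or not listed, and neither a spread between replicates nor a test can be had from the lists. The lists themselves carry no sequencing depth, and the libraries' depths were not used here. The list of P28 had 11553 rows at 7144 positions, and that of P28.5 had 8514 rows at 5193 positions. Helicase genes were named in 33 rows at 23 positions at P28, and in 33 rows at 22 positions at P28.5. The BRG1 libraries and the signal tracks of single ARID2 libraries were not analysed here, so every limit on replicates is one of these lists.

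DEAD and DEAH box proteins use ATP to bind, unwind or remodel RNA and to displace proteins from it. DEAD box enzymes mostly pry open short duplexes where they land, whereas DEAH box enzymes move along a strand. They act at nearly every step in the life of an RNA, from splicing and ribosome assembly to export, translation, storage and decay. Male germ cells depend heavily on such control, because much of the RNA made in late prophase-I is translated only after the meiotic divisions.

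The lists come from ARID2 enrichment clustered over a window around each start site. A listed position therefore marks the centre of that window and is not a mapped site of binding. The promoters of 4 listed members are shown first. These genes have more than 1 annotated start, and each run covers 180 bases before the start in RefSeq's promoter table to 20 bases from it, on the plus strand of GRCm38.p6 as given by RefSeq, and capitals mark CpG dinucleotides. Dhx35 and Ddx59 were listed at both ages, Ddx46 at P28 alone and Ddx51 at P28.5 alone.

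Dhx35, chr2:158794627-158794826, plus strand: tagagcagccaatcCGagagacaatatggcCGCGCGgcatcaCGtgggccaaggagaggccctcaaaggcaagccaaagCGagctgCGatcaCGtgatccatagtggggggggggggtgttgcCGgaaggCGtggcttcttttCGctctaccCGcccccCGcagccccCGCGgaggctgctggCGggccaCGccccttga
Ddx59, chr1:136415091-136415290, plus strand: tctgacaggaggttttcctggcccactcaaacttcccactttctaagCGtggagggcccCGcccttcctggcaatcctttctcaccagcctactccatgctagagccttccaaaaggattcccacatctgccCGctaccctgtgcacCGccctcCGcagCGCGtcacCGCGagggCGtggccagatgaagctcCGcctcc
Ddx46, chr13:55634819-55635018, plus strand: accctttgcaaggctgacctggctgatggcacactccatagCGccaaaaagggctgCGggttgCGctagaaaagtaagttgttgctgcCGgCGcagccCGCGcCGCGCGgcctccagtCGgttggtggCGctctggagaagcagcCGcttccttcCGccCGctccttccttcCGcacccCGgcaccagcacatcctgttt
Ddx51, chr5:110653271-110653470, plus strand: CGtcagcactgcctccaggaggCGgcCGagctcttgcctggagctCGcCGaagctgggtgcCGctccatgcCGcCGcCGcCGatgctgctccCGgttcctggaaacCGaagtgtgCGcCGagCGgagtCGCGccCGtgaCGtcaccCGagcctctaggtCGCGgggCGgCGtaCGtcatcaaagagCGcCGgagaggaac

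The Ddx51 run was the richest in CpG of these 4, with 27 CpGs and 70.0% G and C, and with an observed to expected CpG ratio of 1.10. The Dhx35 and Ddx46 runs held 17 CpGs each, and the Ddx59 run held 11. Motifs were searched on both strands. GGGCGG, the core of a GC box, was found in all 4 runs. In Dhx35 a CCAAT box began 172 bases before the start, and CACGTG, an E-box, began 140 and 90 bases before it. In Ddx51, TGACGTCA, the cyclic AMP response element, began 44 bases before the start. A match describes the letters and not a bound factor. The listed positions lay at the downstream end of these runs, because each run was cut to end just after a start. In Dhx35 they were 31, 23, 22, 21 and 0 bases before the start, and in Ddx46 they were 25 and 0 bases before it. In Ddx51 they were 20 and 0 bases before it. The upstream positions of Ddx46 and Ddx51 were each 1 bp from another annotated start of the same gene. In Ddx59 the listed positions were at the start and 2 bases after it.

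By symbol, 13 of the 51 members (25.5%) were in Cl-1 at P28, against 16.8% of all protein-coding genes. At P28.5, 11 members (21.6%) were in Cl-1, against 11.6%. Without genes that have another gene's 5′ end within 1000 bp, 4 of 32 members were listed at P28.5 (12.5%, against 7.97%). At both ages, 7 members (13.7%) were listed, against 8.48%: Ddx39a, Ddx42, Ddx43, Ddx47, Ddx54, Ddx59 and Dhx35. A further 6 members (11.8%) were listed at P28 alone, against 8.33% of all genes: Ddx24, Ddx41, Ddx46, Ddx52, Ddx60 and Dhx32. The 4 members listed at P28.5 alone (7.84%, against 3.13%) were Ddx31, Ddx39b, Ddx51 and Dhx29. Thus 17 members were named at 1 age or more, and 34 were not named at either. The shares of members lay above the background in each of these comparisons. With no test and no replicates these counts are descriptions, and nothing particular to the family is read from them.

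**Figure D1:**
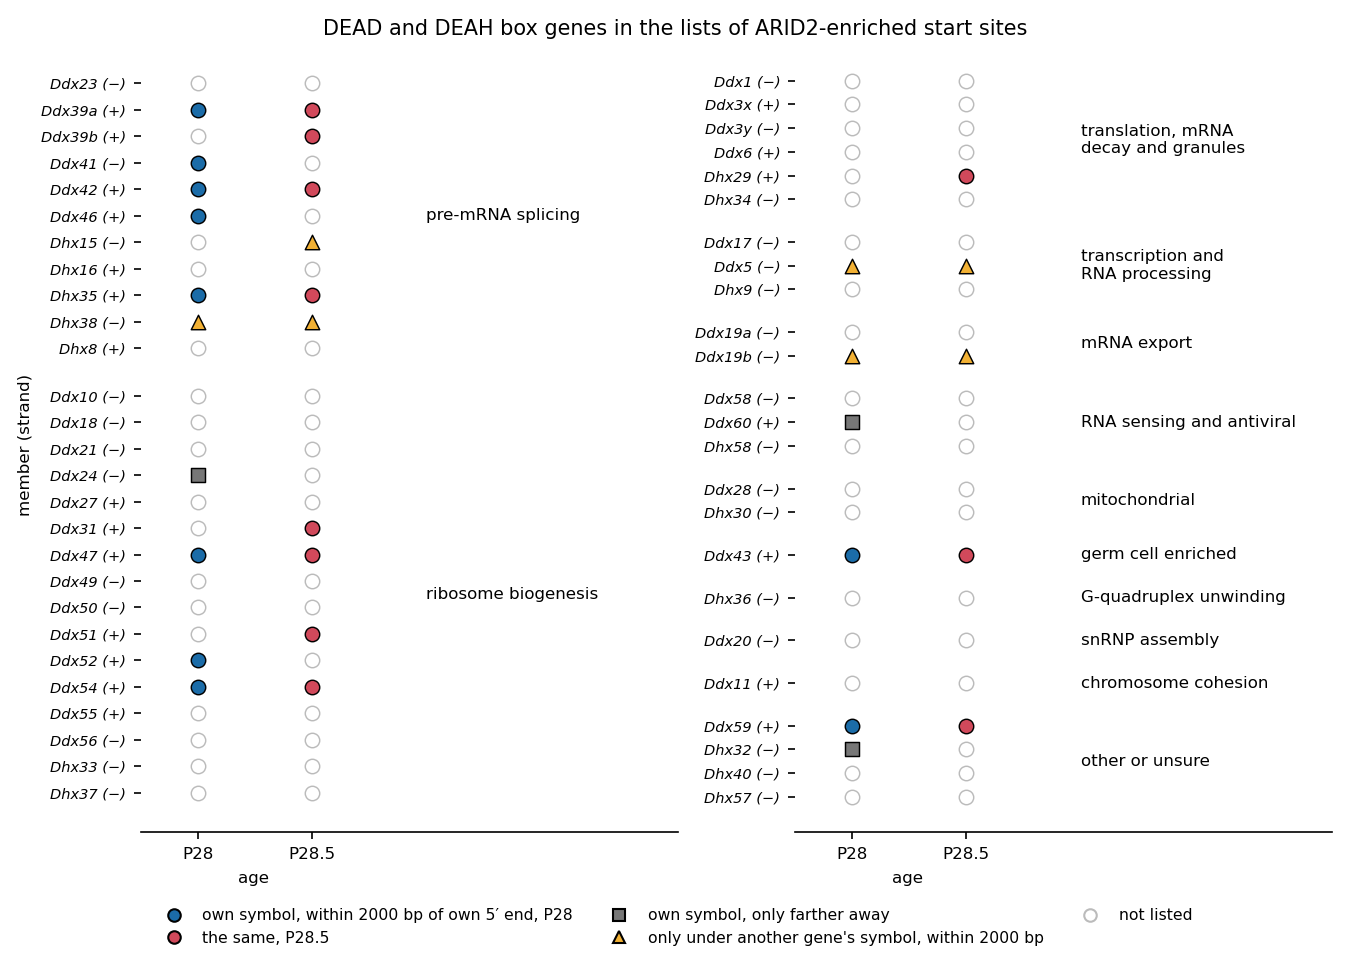
Listing of each member at P28 and P28.5 (columns), grouped by role, with its strand. Circles filled blue or red are the 10 members at P28 and the 11 at P28.5 that had a row under their own symbol within 2000 bp of their own 5′ end, squares are rows under the member's symbol that lay farther away (Dhx32 also had rows of Fank1 near a start), triangles are positions under another gene's symbol alone, and open circles are not listed.

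Splicing helicases drive the ordered rearrangements of the spliceosome. Of 11 members with this role, 7 of them on the plus strand, P28 had 5 in Cl-1 and P28.5 had 4, with 3 common to both ages. Over all protein-coding genes the shares were 16.8%, 11.6% and 8.48%, and over those on the plus strand 26.0% at P28 and 20.4% at P28.5. Dhx35, found in the catalytic spliceosome, had 7 rows at each age, at positions 158794776, 158794784, 158794785, 158794786 and 158794807 of chromosome 2, the most positions of any member. Ddx42, a factor of the U2 snRNP, was listed at both ages at 106216926 on chromosome 11, the 5′ end of one of its transcripts. Ddx46, which helps U2 to join the branch point, was listed at P28 alone, at 55634974 and 55634999 on chromosome 13. The nearest listed position at P28.5 was 189644 bp from a 5′ end of Ddx46. Ddx41, a helicase that associates with the spliceosome, was listed at P28 alone, at 55535995 on chromosome 13. This position lies in an exon of Ddx41, 535 bp downstream of a 5′ end, and is the 5′ end of the noncoding gene Gm46416 on the opposite strand. Ddx23, Dhx8, Dhx15, Dhx16 and Dhx38, which act from activation of the spliceosome to its disassembly, were not named at either age. Ddx23, Dhx15 and Dhx38 are on the minus strand, where the lists named fewer genes. Rows of other genes lay 135 bp from the start of Dhx15 at P28.5 alone, and 125 bp from that of Dhx38 at both ages. Under any symbol, 6 of the 11 had a position within 2000 bp of a start at each age. Whether the step of splicing bears on listing was not tested.

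The close paralogs Ddx39a and Ddx39b, which load export factors onto spliced mRNA, were split by the lists. Ddx39a was listed at both ages under its older symbol Ddx39, at positions 83715177, 83715480, 83715496 and 83715503 of chromosome 8. The lowest of these was an annotated 5′ end of Ddx39a, and the others lay 54, 38 and 31 bp upstream of another one. Ddx39b was listed at P28.5 alone, at its 5′ end at 35241746 on chromosome 17. At P28 the listed position nearest to a 5′ end of Ddx39b was 20277 bp away.

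Ribosome biogenesis had the most members, 16, whose proteins process ribosomal RNA precursors or release snoRNAs in the nucleolus. On the plus strand there are 7 of the 16, and the shares of all genes there were 26.0% at P28 and 20.4% at P28.5. At each age 4 of the 16 were listed, beside 16.8% of all genes at P28 and 11.6% at P28.5. Of the 4 at P28, 3 had a row within 2000 bp of their own 5′ end. The 2 listed at both ages, beside 8.48% of all genes, were Ddx47 and Ddx54. Ddx47 was listed at its 5′ end at 135011612 on chromosome 6, and Ddx54 at 120613107 and 120613130 on chromosome 5. Ddx52 was listed at P28 alone, at its annotated 5′ end at 83942090 on chromosome 11. At P28.5 the nearest listed position was 468982 bp from that start. Ddx31 and Ddx51 were listed at P28.5 alone. Ddx31 had 4 rows, at 28840406 and 28840681 on chromosome 2, and Ddx51 had 2 rows, at 110653431 and 110653451 on chromosome 5. At P28 the nearest listed positions were 140245 bp from a 5′ end of Ddx31 and 117437 bp from a 5′ end of Ddx51. Ddx24 was named at P28 alone, in a row at 103429650 on chromosome 12, 3803 bp upstream of its only annotated 5′ end. Ddx10, Ddx18, Ddx21, Ddx27, Ddx49, Ddx50, Ddx55, Ddx56, Dhx33 and Dhx37 were not named. The nucleolar paralogs Ddx21 and Ddx50, which are neighbours on the minus strand of chromosome 10, were thus both unlisted.

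Of 6 members that act in translation, mRNA decay and RNA granules, 3 are on the plus strand. The P28 list named 0 of the 6 and the P28.5 list 1, beside 16.8% and 11.6% of all genes. On the plus strand the shares of all genes were 26.0% and 20.4%. Dhx29, which helps ribosomes scan structured leaders, was listed at P28.5 alone, at 112927793 on chromosome 13. This position is in an exon, 113 bp downstream of the 5′ end. At P28 the nearest listed position was 60122 bp from that end. Ddx6, a core protein of P-bodies, Ddx1, a subunit of the tRNA ligase complex, and Dhx34, a factor of nonsense-mediated decay, were not listed. Neither was Ddx3x on the X chromosome nor its Y-linked paralog Ddx3y. Few sex-linked genes were listed at all. Of the 3661 protein-coding genes listed at P28, 3658 were on neither sex chromosome, as were 2523 of the 2528 at P28.5. Among all 21774 protein-coding genes, 20558 were on neither. D1Pas1, an autosomal, testis-expressed paralog of Ddx3x and Ddx3y, was listed at both ages at its 5′ end at 186967416 on chromosome 1. It was looked up after the lists were seen and is outside the rule.

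Among members with other roles, Ddx43, an RNA helicase enriched in germ cells, was listed at both ages with 4 rows at its 5′ end at 78395777 on chromosome 9. Ddx59 was listed at both ages, at 136415271 and 136415273 on chromosome 1. Ddx60, an interferon-induced helicase, was named at P28 alone, at 61950497 on chromosome 8, in an exon 22410 bp downstream of the nearest annotated 5′ end. Dhx32 was named at P28 alone, at 133883199 on chromosome 7. That position is 100414 bp upstream of the nearest 5′ end of Dhx32, and it is the lower-coordinate end of a minus-strand transcript of Adam12, which is its 3′ end. The viral RNA sensor Ddx58 (RIG-I) and its relative Dhx58, the mitochondrial Ddx28 and Dhx30, the mRNA export factors Ddx19a and Ddx19b, and the transcription partners Ddx5, Ddx17 and Dhx9 were not named at either age. The same held for Dhx36, which unwinds G-quadruplexes, Ddx20, a part of the SMN complex, Ddx11, a DNA helicase of sister chromatid cohesion, and Dhx40 and Dhx57.

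For the 7 members listed at both ages, the positions were the same at both ages in 7 of 7. Among all genes listed at both ages, 82.5% had the same positions. Both lists hold start sites around which signal was clustered. The same positions thus do not show that ARID2 bound at the same place at both ages. Which RefSeq release the lists were made from is not given in the sources used here, so distances and coincidences hold for the annotation used here alone. These distances compare listed positions with annotated ends and do not measure where ARID2 bound. At P28, 9 of the 23 helicase positions coincided with an annotated 5′ end of the same gene, 19 lay within 100 bp of one, and 3 lay over 2000 bp from any. At P28.5, 10 of 22 positions coincided with such an end, 21 lay within 100 bp, and 0 lay over 2000 bp away. The 3 distant rows at P28 were those of Ddx24, Ddx60 and Dhx32. When a row had to carry the symbol and lie within 2000 bp of an own 5′ end, 10 members were listed at P28 (19.6%, against 13.7% of all genes) and 11 at P28.5 (21.6%, against 11.4%). By this stricter count 7 members were listed at both ages (13.7%, against 8.22% of all genes). Of all genes listed by it at 1 age alone, 36.7% were at P28.5. Among members, 3 were at P28 alone (Ddx41, Ddx46 and Ddx52) and 4 at P28.5 alone. Rows far from a start were thus the only ones for 3 of the 13 members named at P28 (23.1%, against 18.5% of all genes named at that age) and for 0 of 11 at P28.5 (against 1.86%), which is close to the background.

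**Figure D2:**
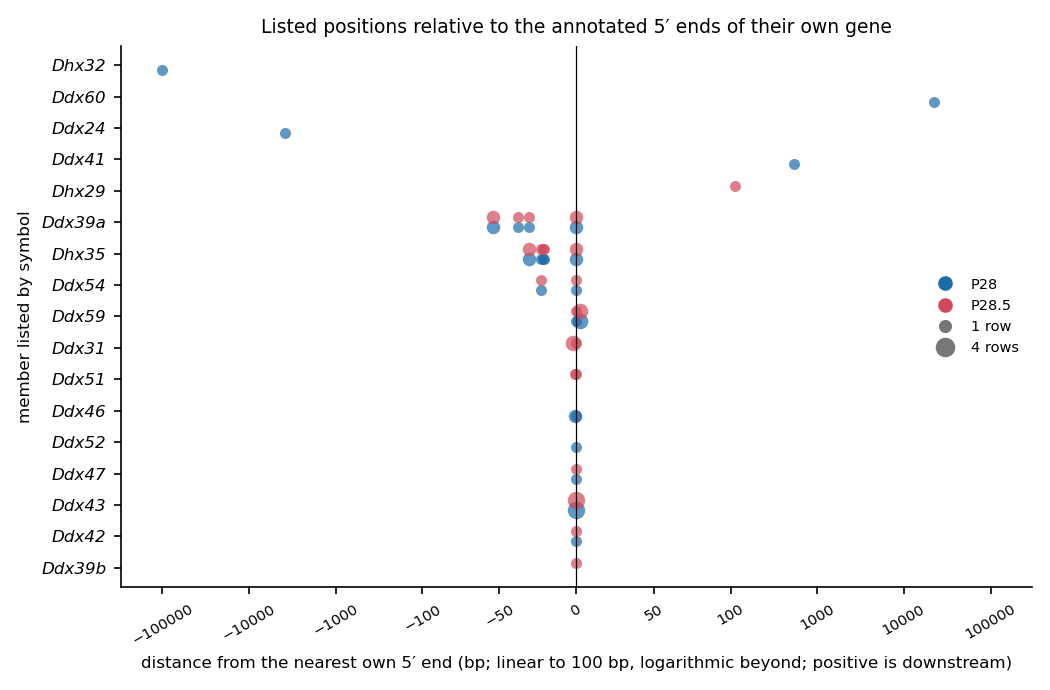
Distance in bp of each listed position from the nearest annotated 5′ end of the member whose symbol it carries, at P28 (blue) and P28.5 (red), on an axis that is linear to 100 bp and logarithmic beyond it. Point area grows with the number of rows, and Ddx41 at 535 bp, Ddx24 at 3803 bp, Ddx60 at 22410 bp and Dhx32 at 100414 bp stand away from their starts, all at P28.

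The listed helicases were mostly genes on the plus strand. Of 21 plus-strand members, 10 were listed at P28 (47.6%, against 26.0% of all plus-strand genes) and 11 at P28.5 (52.4%, against 20.4%). Of 30 minus-strand members, 3 were listed at P28 (10.0%, against 7.61%), namely Ddx24, Ddx41 and Dhx32, and 0 at P28.5 (against 2.86%). Over the whole list of P28, 3956 of 7144 positions (55.4%) coincided with the lower-coordinate end of an annotated transcript, where plus-strand genes start but minus-strand genes stop, and 3 coincided with an upper end alone. At P28.5 these numbers were 2742 of 5193 (52.8%) and 3. The lower end was that of minus-strand transcripts alone, and thus a 3′ end, at 736 of these positions at P28 and at 73 at P28.5. The remaining 3185 positions at P28 and 2448 at P28.5 coincided with no annotated transcript end. Of the positions under a helicase symbol, 11 of 23 coincided with a lower end at P28 and 10 of 22 at P28.5. The part of this in the difference between the strands was not tested, and an unlisted minus-strand helicase is not shown to lack ARID2.

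Positions within 2000 bp of a member's 5′ end were next counted whatever symbol the row carried. This gave 14 members at P28 (27.5%, against 17.3%) and 15 at P28.5 (29.4%, against 14.8%). In 5 members such a position carried only a neighbour's symbol, and all 5 are on the minus strand. Ddx5, a coactivator and processing factor, starts 67 bp from the start of Cep95 on the opposite strand. Rows of Cep95 were listed at both ages at 106789226 and 106789252 on chromosome 11, 41 and 67 bp upstream of Ddx5. For its paralog Ddx17 the nearest listed position was 112392 bp from a 5′ end at both ages. Dhx38, which drives the second step of splicing, starts 31 bp from Txnl4b, itself a gene for a spliceosome-associated protein. A row of Txnl4b was listed at both ages at 109565986 on chromosome 8, 125 bp upstream of Dhx38. Dhx15, which takes apart the spent spliceosome, had a row of the noncoding gene 9230114K14Rik 135 bp upstream, at 52190681 on chromosome 5, at P28.5 alone. At P28 the nearest listed position was 250134 bp from the start of Dhx15. Dhx32 had rows of Fank1, a testis gene, at 133776855 and 133776891 on chromosome 7 at P28, 52 and 88 bp upstream of one of its starts. Ddx19b had a row of Aars, which encodes alanyl-tRNA synthetase, 1929 bp upstream of its first start, at 111033680 on chromosome 8 at both ages. Another start of Ddx19b lies 8 bp from that of Aars. For its paralog Ddx19a the nearest listed position was 35857 bp away at both ages.

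Counting names and positions together, 21 members were listed at 1 age or more and 30 at neither. No share of all protein-coding genes was computed for this combined count, so nothing is read from it. An annotated 5′ end of another gene lay within 1000 bp on the opposite strand in 17 members (33.3%), against 21.7% of all protein-coding genes. By symbol, 5 of these 17 were listed at P28 (29.4%, against 28.4% of all genes with such a neighbour) and 6 at P28.5 (35.3%, against 24.2%). On the plus strand the neighbours were Gtf3c4 for Ddx31, Ccdc47 for Ddx42, Noc4l for Ddx51, Rita1 for Ddx54, 9230116N13Rik for Ddx59 and Mtrex for Dhx29, and the listed rows there carried the helicase's symbol. Ddx51 and Noc4l start 50 bp apart, and both encode ribosome biogenesis factors. Dhx29 and Mtrex start 300 bp apart, and Mtrex is the RNA helicase of the nuclear exosome. Of 11 minus-strand members with such a neighbour, 6 had a listed position within 2000 bp of a start at 1 age or more (54.5%, against 45.4% of all such minus-strand genes). Of 19 minus-strand members without one, 0 did (against 2.11%). The remaining 5 minus-strand members with a neighbour and no listed position were Ddx19a, Ddx28, Ddx49, Dhx30 and Dhx57.

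**Figure D3:**
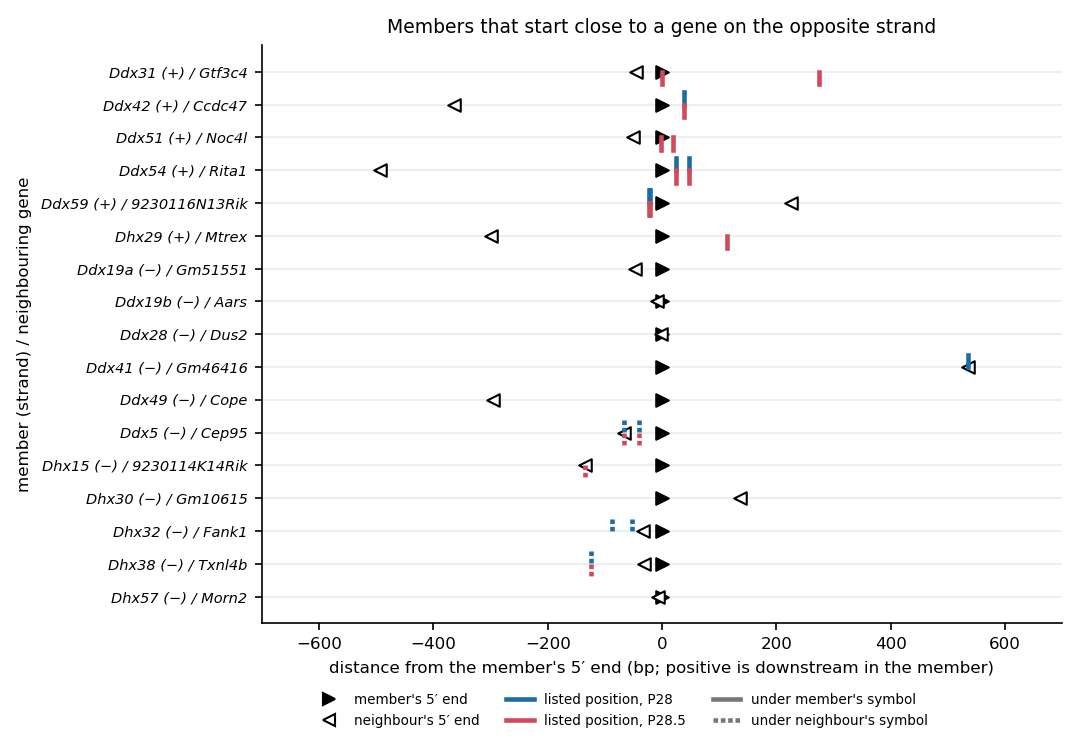
The 17 members with a 5′ end of another gene within 1000 bp on the opposite strand, with the distance in bp from the member's 5′ end closest to that neighbour (filled triangle) to the neighbour's 5′ end (open triangle) and to listed positions at P28 (blue) and P28.5 (red), solid where the row carries the member's symbol and dotted where it carries the neighbour's. Plus-strand members carry rows of their own, whereas Ddx5, Dhx15, Dhx32 and Dhx38 on the minus strand have rows of the neighbour close to their start. The row of Aars near Ddx19b is outside the plotted range.

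The starts of the helicase genes were rich in CpG. The observed to expected CpG ratio within 500 bp on either side of the first annotated 5′ end had a median of 0.811 over the 51 members, against 0.516 over all protein-coding genes. When all genes were split into 5 equal classes by this ratio, 27 members (52.9%) fell in the highest class. Within that class 7 of 27 were listed at P28 (25.9%, against 28.8%) and 8 of 27 at P28.5 (29.6%, against 27.0%), close to the background of that class. This did not hold for the next classes, which had fewer members. In the fourth, 2 of 12 were listed at P28 (16.7%, against 24.9%) and 1 of 12 at P28.5 (8.33%, against 19.1%), and in the third, 3 of 7 (42.9%, against 14.2%) and 2 of 7 (28.6%, against 6.89%). With the highest class limited to the plus strand, 6 of 11 were listed at P28 (54.5%, against 46.2%) and 8 of 11 at P28.5 (72.7%, against 47.0%). Median ratios were 0.886 for the 7 members listed at both ages, 0.742 for the 6 at P28 alone, 0.853 for the 4 at P28.5 alone and 0.797 for the 34 at neither. The corresponding medians of all genes were 0.782, 0.610, 0.773 and 0.424, so the unlisted helicases differed from other unlisted genes more than the listed ones from other listed genes. Ddx43 was highest among the members listed at both ages, with a ratio of 0.988, and Ddx47 was lowest, with 0.562. Among members at P28 alone the ratio was lowest for Dhx32, at 0.323, and for Ddx60, at 0.394, both named in rows far from their starts. The highest ratio of all was that of the unlisted Ddx17, at 1.06, and the lowest that of the unlisted Ddx6, at 0.164. The first 5′ end need not be the start that is used most, which bears on genes with many annotated starts, such as Ddx50 with 8.

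**Figure D4:**
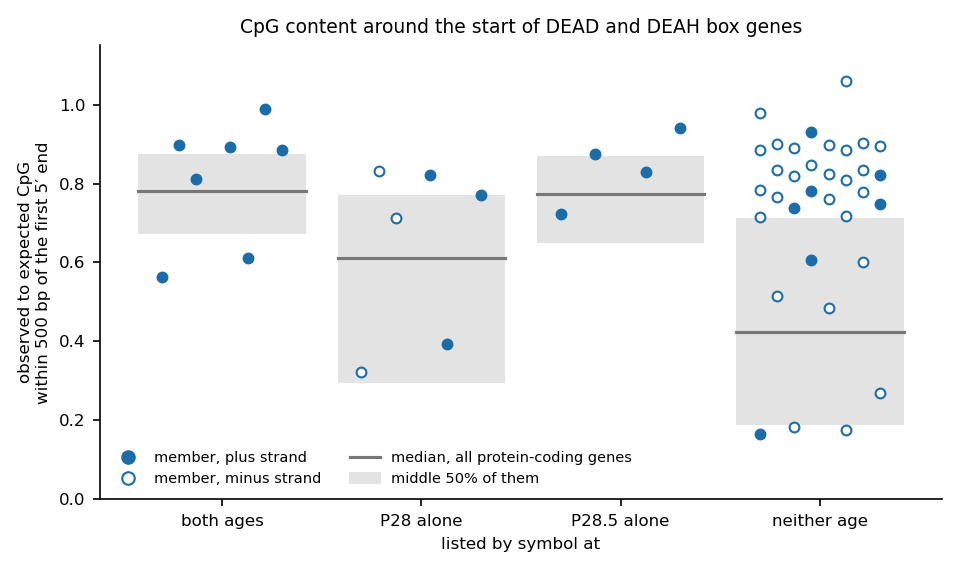
Observed to expected CpG ratio within 500 bp of the first annotated 5′ end for the 51 members, by whether the symbol was listed at both ages, at P28 alone, at P28.5 alone or at neither, with plus-strand members filled and minus-strand members open. Grey lines and bands are the median and the middle 50% of all protein-coding genes of each class, and most of the 34 unlisted members lie above the band of unlisted genes.

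**Figure D5:**
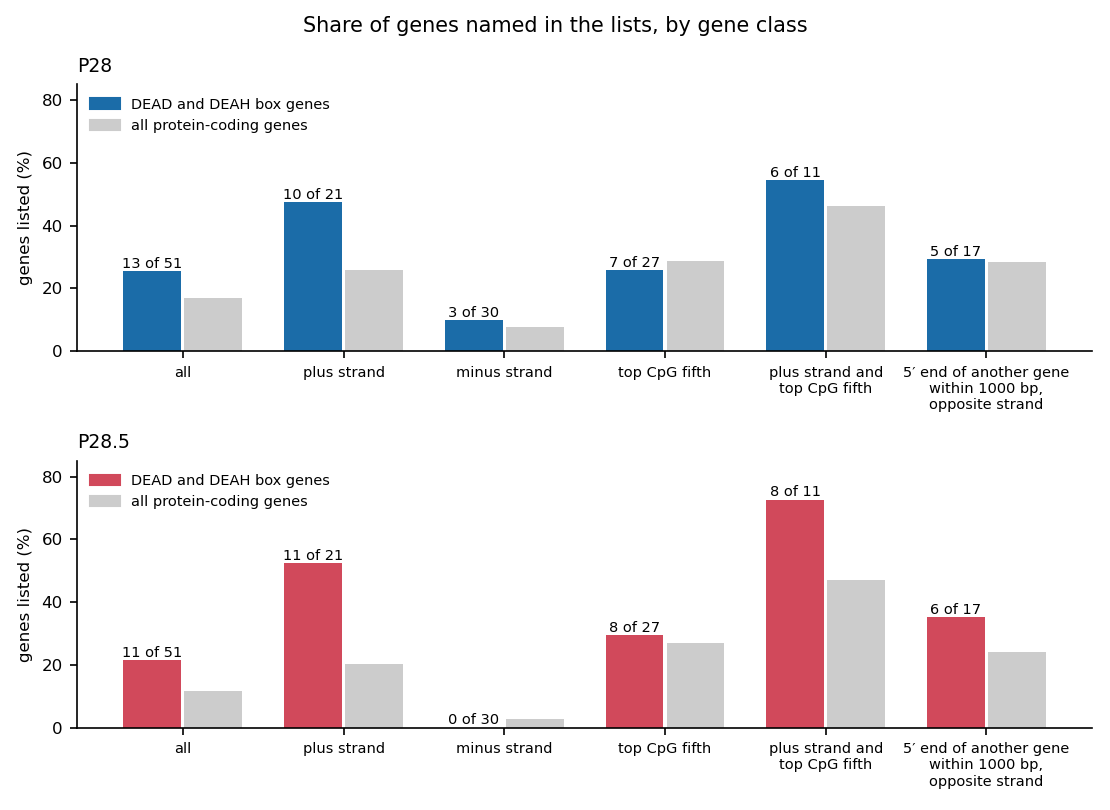
Percent of members (blue at P28, red at P28.5) and of all protein-coding genes (grey) listed by symbol, from 0, for all genes and for classes by strand, CpG content and a neighbouring start. Numbers over the bars are listed members of all members in the class. Among the classes plotted, bars of members and of all genes were farthest apart on the plus strand, and in the highest CpG class they stood at 25.9% and 28.8% at P28 and at 29.6% and 27.0% at P28.5.

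Short motifs were searched on both strands from 250 bases before to 50 bases after the first 5′ end of each gene. CCAAT was present in 24 of the 51 members (47.1%, against 38.5% of all protein-coding genes), among them 10 of the 17 named members and 14 of the 34 others. GGGCGG was present in 25 members (49.0%, against 40.2%), of which 10 were named and 15 were not. TGACGTCA was present in 6 members (11.8%, against 2.22%). These were Ddx19a, Ddx28, Ddx49, Ddx51, Dhx36 and Dhx38, and Ddx51 alone among them was named in the lists. TATAAA, the TATA box, was present in 3 members (5.88%, against 14.3%), Ddx39a, Ddx58 and Ddx60. CACGTG was present in 4 members (7.84%, against 7.54%), and AAGATGGC, a YY1 motif, in 3 members (5.88%, against 2.80%), Ddx11, Ddx3x and Ddx47. CTCGCGAG was present in 0 members, against 1.01% of all genes. These shares are descriptions, and an absent match says only that the letters are not in the window.

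Related genes were looked up beside the family. Of 22 RNA helicases without a Ddx or Dhx name, the P28 list named 7 (31.8%) and the P28.5 list 6 (27.3%), against the same backgrounds of 16.8% and 11.6%. Of the 22, 8 are on the plus strand, and 5 of these were listed at each age, against 26.0% and 20.4% of all plus-strand genes. All 6 genes named at P28.5 were listed at both ages. They were Eif4a2, a translation initiation helicase, Ascc3, an unwinding subunit of the ASC-1 complex, Znfx1, and the germline helicases Mov10l1, Tdrd9 and Ythdc2, the first pair in the piRNA pathway and the last needed for the switch from mitosis to meiosis. Tdrd12, another germline helicase of the piRNA pathway, is on the minus strand and was not listed at either age. Eif4a2 had 11 rows at each age and Tdrd9 had 6. Dicer1 was named at P28 alone, in rows over 2000 bp from its 5′ ends. The paralogs Eif4a1 and Eif4a3, on the minus strand, were not named. Of 26 known partners of members, each list named 7 (26.9%, against 16.8% at P28 and 11.6% at P28.5). All of these were among the 16 partners on the plus strand, where the shares of all genes were 26.0% and 20.4%. The 4 partners listed at both ages (against 8.48% of all genes) were Tfip11, the activator of Dhx15, Sugp1, Eif4enif1, a partner of Ddx6, and Thoc1 of the THO complex. Gpatch2, Fastkd2 and Cmtr1, the last in a row over 2000 bp from its 5′ ends, were listed at P28 alone, and Nup214, the nuclear pore anchor of Ddx19, Edc3 and Patl1 at P28.5 alone. Both Edc3 and Patl1 are partners of Ddx6 in mRNA decay, and Ddx6 itself was not listed. The Ddx19 activator Gle1 was not listed at either age.

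Genes that mark cell types were looked up as well, although a listed start shows occupancy and not expression. Of 7 markers of late prophase and metaphase spermatocytes, 1 was listed at P28 (Sycp3) and 2 at P28.5 (Sycp3 and Hormad1). Of 4 round spermatid markers, 1 was listed at P28 (Tnp1) and 0 at P28.5. Of 4 markers each of Sertoli cells, Leydig cells and spermatogonia, 0 were listed at either age. Over all protein-coding genes the shares were 16.8% at P28 and 11.6% at P28.5, so counts in sets this small say little. The lists therefore hold no check of the cell types present.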

How the data were processed

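Reads were trimmed (TrimGalore 0.6.2), mapped to mm10 (bowtie2 2.4.1, samtools 1.13) and turned into coverage (deepTools 3.2.0) by the authors, who left out duplicates and blocklist regions. Coverage was scaled by effective library size, set against the control without primary antibody as a log2 ratio, averaged with WiggleTools 1.2 and clustered by k-means around RefSeq TSSs. The deposited lists hold genomic positions, not signal, so depth, fold change and replicate error could not be computed from them, and signal tracks and peaks were not analysed here.

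Symbols were matched as written or by a synonym of 1 gene, 99.8% at each age. Distances were taken to GRCm38.p6 RefSeq 5′ ends, which may differ from the authors' release, with limits of 2000 and 1000 bp. RefSeq promoters were given for 45 of 51 members (not Ddx11, Ddx23, Ddx39a, Ddx6, Dhx38 and Dhx58). Motif and CpG windows were read from the genome. No statistical test was made. Matching of symbols and positions was checked on simulated data. Protein sequences were not used here. From the list of related helicases 1 gene was left out and is not reported here.

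The members and lists were chosen with earlier results of these data known. Every member listed by symbol or position was named. Listed positions were given for each of these members, whether under its own symbol or another. Python 3.11.15, numpy 2.4.6 and matplotlib 3.10.9 were used.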

Additional observations from a re-analysis of the deposited data

How the results depend on the processing

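Of 24 alternative values for the shares of members listed at P28, at P28.5 and at both ages, 18 lay within the 95% Wilson interval of the main share (15.5% to 38.9%, 12.5% to 34.6% and 6.81% to 25.7%), which covers counting error only. The alternatives recount the same members or a subset of them, so a value within so wide an interval says little about robustness. Outside the interval were the shares of plus-strand members alone, 47.6%, 52.4% and 33.3%. The same held for plus-strand members with a position within 2000 bp of an own 5′ end, an alternative chosen after seeing the data, at 42.9%, 52.4% and 33.3%. All protein-coding genes also had higher shares on the plus strand, 26.0%, 20.4% and 14.8%. Without olfactory and vomeronasal receptors the shares of all protein-coding genes were 17.8%, 12.4% and 9.09%. Without members that have another gene's 5′ end within 1000 bp, 8 of 32 were listed at P28, against 13.5% of all such genes, and 4 of 32 (12.5%) at P28.5, against 7.97%, which is at the lower bound of the interval. No paired analysis was possible because each list used here was made from averaged libraries and has no column for a replicate, and tracks of single libraries were not analysed here.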
